A study of Homo sapiens with 3 samples.

Results

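The control library holds RNA of cells labelled HCT116, a human colorectal cancer cell line, that were given a control small interfering RNA (siRNA). It was 1 of 3 libraries in the study, and the other 2 came from the same line with an siRNA against DUOX2 and are not used here. It was chosen by its label alone, and the description below covers all 58302 genes of the deposited table in that library. Per the labels, total RNA was made into libraries with the TruSeq RNA kit. The dose of the siRNA, the time of harvest and the culture conditions are not given in the labels. With 1 library in the group there is no replicate check, so every value below is a description of this library and no difference was tested. The identity of the cells was taken from the label and was not tested. The SMAD4 value given below goes against what is known of that line.

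HCT116 is an established epithelial line from a colon carcinoma. It is known for activating mutations in CTNNB1 and PIK3CA and for a loss of DNA mismatch repair. In the colon, stem cells at the crypt base divide under WNT signalling, and their descendants mature into absorptive colonocytes and into secretory cells. Colon cancers often keep the transcription factors of the intestine while losing the products of its mature cells.

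The control siRNA is a duplex whose strands are given because they define the group. The capitals mark the 2-base overhang of each strand, and the other 19 bases pair with each other.

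control siRNA, sense strand: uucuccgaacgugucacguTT

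control siRNA, antisense strand: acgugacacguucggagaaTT

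Expression was described in FPKM, the authors' count per gene scaled to the gene's length and to the total of the library. A gene was called expressed at an FPKM of at least 1 with at least 10 counts. Genes with 3 counts or fewer were taken as not detectable at this depth, and genes in between were called low. The library had 17589502 counts in all, so 3 counts correspond to 0.171 CPM (the count scaled to the library total alone), or to an FPKM of 0.0569 for a length of 3000 bases. Exact Poisson intervals at 95% are given for counts and cover counting error only, because the reads carry no molecular identifiers and may repeat a molecule. The length behind the authors' FPKM counts overlapping exons of different transcripts repeatedly. It was a median of 1.52 times the length of the merged exons, which lowers the FPKM of genes with many annotated transcripts. Where the merged length changes the call of a named gene, that value is given as well. Orders of genes follow the authors' length, and some of them change with merged exons.

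Of all genes, 12225 were expressed, or 21.0%, and 34455 had no count. The expressed genes were mostly protein-coding. Of 19817 protein-coding genes 10133 were expressed, or 51.1%, while 6038, or 30.5%, had 3 counts or fewer. Protein-coding genes took 93.1% of all counts. Their median was 1.11 FPKM, and among the expressed ones it was 5.17 FPKM. Only 15 protein-coding genes reached 1000 FPKM, 120 lay between 100 and 1000, 2791 between 10 and 100, and 7207 between 1 and 10.

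Mitochondrially encoded genes took 8.58% of the counts, with MT-CO1, a subunit of cytochrome oxidase, highest at 13171 FPKM. Leaving these genes out, the most abundant protein-coding gene was FTL, the light chain of the iron store ferritin, with 26359 counts and 1707 FPKM. It was followed by TMSB10, an actin-binding thymosin, at 1363 FPKM and by the chaperone HSP90AB1 at 606 FPKM. The fourth was KRT5 (ENSG00000186081, on chromosome 12 at 52514575 to 52520687, GRCh38), a keratin best known from the basal layer of stratified epithelia. KRT5 had 74543 counts (95% interval 74009 to 75080) and 522 FPKM. GAPDH at 488 FPKM, the linker histone H1F0 at 473 FPKM and the RNA-binding protein YBX1 at 453 FPKM came next. EEF2, which moves the ribosome along the message, stood at 448 FPKM, the membrane protein PLP2 at 407 FPKM and the tubulin TUBB at 394 FPKM. With merged exons, GAPDH rose to 1132 FPKM and KRT5 to 987 FPKM, so the order within this group depends on the length used. It also depends on reads placed on pseudogene copies, described below. With its 10 named copies YBX1 would be at 599.8 FPKM. EEF1A1, at 158 FPKM on the gene alone, would be at 676 FPKM with its 39 named copies. TUBB and GAPDH share at least 10% of their exon bases with another gene, and no source used here names the counting program or its use of strand, so their values are uncertain.

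The 10 genes with most counts held 7.97% of the library (exact binomial 95% interval 7.95 to 7.98%). Without the mitochondrial genes the 10 highest held 3.46%.

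Outside the protein-coding genes, long noncoding types were sparsely expressed. Of 14482 such genes 706 were expressed, or 4.88%, and 82.5% had 3 counts or fewer. They took 1.05% of the counts. Among intergenic long noncoding RNAs 268 of 7358 were expressed, led by NORAD, which binds PUMILIO proteins, at 191 FPKM. IGFL2-AS1 followed at 97.3 FPKM and AC005332.6 at 39.2 FPKM. AC005332.6 shares 48.4% of its exon bases with another gene. Antisense genes were expressed in 297 of 5448 cases, with AL365181.3 highest at 50.5 FPKM, then AL590666.2 at 50.03 FPKM and DLGAP1-AS2 at 30.8 FPKM. The sources used here do not say whether the counting used strand, so reads of an antisense gene and of its partner cannot be told apart where they overlap.

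Processed pseudogenes, which are copies of messages pasted into the genome, had 951 expressed members of 10183, or 9.34%, and took 3.63% of the counts. Reads of such a copy and of its parent are nearly alike. EEF1A1P5 had 89808 counts and 3676 FPKM, more than its parent EEF1A1 (the elongation factor 1 alpha gene) with 35769 counts. All 39 named copies of EEF1A1 together had 117297 counts, so 23.4% of the reads of this group lay on the gene itself. AC116533.1 followed at 1525 FPKM and PPIAP22, a copy of cyclophilin A, at 1502 FPKM. How much of this signal came from the copies was not tested. Among unprocessed pseudogenes the highest were the nuclear copies of mitochondrial genes MTND2P28 at 2694 FPKM, MTATP6P1 at 2693 FPKM and MTCO1P12 at 775 FPKM. How reads with several placements were treated is not given, and how much of these counts came from the mitochondrial genes was not tested. MTCO1P12 shares 10.6% of its exon bases with other genes.

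Short RNA types were rarely seen. Of 1879 microRNA genes 10 were expressed, of 943 small nucleolar RNA genes 19, and of 1909 small nuclear RNA genes 2. By FPKM the highest were MIR4426 with 133 counts, SNORA8 with 59 counts among the small nucleolar RNAs and RN7SK with 91 counts among the small nuclear RNAs. Each shares 100% of its exon bases with another gene on the same strand, so these counts are uncertain. These are counts on the annotated genes and are not levels of mature small RNAs.

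**Figure D1:**
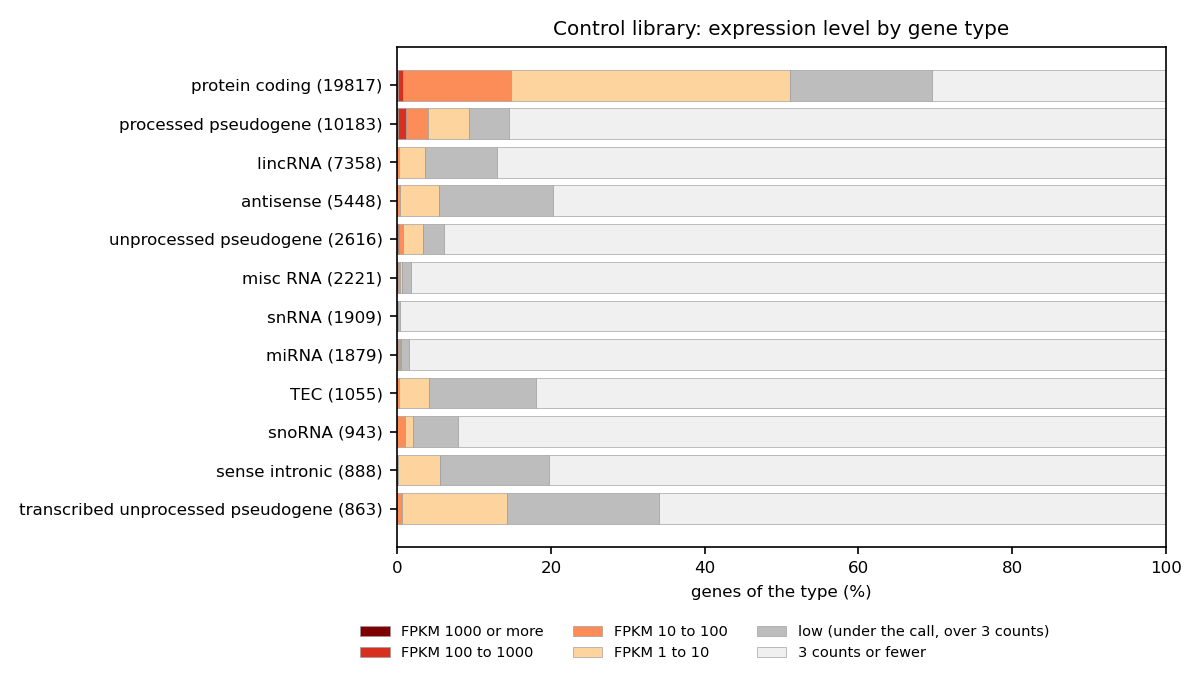
Share of the genes of each type (x axis, percent; number of genes in parentheses) in bands of FPKM in the control library, for the 12 most numerous types. Protein-coding genes reach 51.1% expressed, processed pseudogenes 9.34% and intergenic long noncoding RNAs 3.64%.

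All 5 markers taken for the labelled cell type were expressed. CDX2 is the intestinal one among them, and the other 4 mark epithelia in general. Other genes of the intestine were not detected, as given below for CDH17, CDX1, CEACAM5 and KRT20. KRT18 and KRT8, which pair into the filaments of simple epithelia, had 33521 counts and 289 FPKM, and 31766 counts and 127 FPKM. EPCAM (ENSG00000119888), an epithelial surface protein, had 7646 counts (95% interval 7476 to 7819) and 102 FPKM. CDX2 (ENSG00000165556), the homeobox factor that sets intestinal identity, had 2001 counts and 25.4 FPKM, above 95.1% of protein-coding genes. CDH1, which encodes E-cadherin, was the lowest of the 5 with 1472 counts and 5.79 FPKM, or 13.6 FPKM with merged exons. KRT18 and KRT8 overlap each other, and 50 named copies of KRT8 held a further 8539 counts, so both values are uncertain.

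Promoters are shown for the most and the least abundant of these markers and the enterocyte and colonocyte genes. Only genes with a window in RefSeq (GRCh38.p14) could be used. APOA4 and AQP8 are among 19 enterocyte and colonocyte genes that tie at 0 counts. The promoters set genes read at high levels beside genes not detected in the same cells. Each runs from 250 bases before to 50 bases after the RefSeq start, 5′ to 3′ on the strand of the gene, and the capitals mark CG dinucleotides.

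KRT8, chr12:52926420-52926719, minus strand: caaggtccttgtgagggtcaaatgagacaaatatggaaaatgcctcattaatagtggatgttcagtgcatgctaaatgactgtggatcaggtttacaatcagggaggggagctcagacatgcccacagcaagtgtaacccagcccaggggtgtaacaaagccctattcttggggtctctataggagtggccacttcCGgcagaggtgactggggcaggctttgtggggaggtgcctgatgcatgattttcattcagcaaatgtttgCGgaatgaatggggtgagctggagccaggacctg

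CDX2, chr13:27969266-27969565, minus strand: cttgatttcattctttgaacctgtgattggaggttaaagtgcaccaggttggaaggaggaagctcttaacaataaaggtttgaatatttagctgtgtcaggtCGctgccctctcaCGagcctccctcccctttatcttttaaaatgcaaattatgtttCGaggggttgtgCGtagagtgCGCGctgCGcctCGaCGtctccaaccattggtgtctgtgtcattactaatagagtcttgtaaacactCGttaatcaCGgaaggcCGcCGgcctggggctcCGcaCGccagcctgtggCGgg

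APOA4, chr11:116823255-116823554, minus strand: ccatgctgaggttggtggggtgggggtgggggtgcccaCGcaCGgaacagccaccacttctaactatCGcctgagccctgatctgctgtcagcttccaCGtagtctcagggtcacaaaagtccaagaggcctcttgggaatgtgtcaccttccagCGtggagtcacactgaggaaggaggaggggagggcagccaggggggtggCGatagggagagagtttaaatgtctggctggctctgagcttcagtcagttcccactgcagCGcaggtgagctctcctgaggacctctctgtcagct

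AQP8, chr16:25216697-25216996, plus strand: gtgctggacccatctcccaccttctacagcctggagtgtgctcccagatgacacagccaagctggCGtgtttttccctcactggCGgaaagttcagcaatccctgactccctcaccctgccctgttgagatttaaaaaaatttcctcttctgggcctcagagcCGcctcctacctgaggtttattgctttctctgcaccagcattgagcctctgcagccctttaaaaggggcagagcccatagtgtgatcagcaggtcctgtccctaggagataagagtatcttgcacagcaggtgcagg

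CG dinucleotides did not order these 4 windows by expression. The expressed KRT8 had 2 and the expressed CDX2 had 16, while APOA4 and AQP8, both at 0 counts, had 7 and 3. The median over all 35116 RefSeq windows was 14. The motif TATAAA, searched on both strands, was in none of the 4 windows and in 11.5% of all windows. The windows of KRT8, CDX2 and AQP8 lie inside the longer gene span of the deposited table, so other starts of these genes are not shown. A comparison of promoter composition between expressed and undetected genes was void, since only 78.2% of protein-coding genes matched a window.

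Of 26 epithelial genes 21 were expressed, or 80.8%, against 51.1% of all protein-coding genes, and their median was 10.2 FPKM against 1.11 FPKM. KRT19, another keratin of simple epithelia, stood at 219 FPKM. The membrane protease ST14, also called matriptase, was at 59.9 FPKM and its inhibitors SPINT2 and SPINT1 at 24.5 and 10.7 FPKM. Desmosomal and junction proteins were present, with DSP (desmoplakin) at 59.6 FPKM, JUP (plakoglobin) at 20.9 FPKM and TJP1 (the tight junction scaffold ZO-1) at 20.5 FPKM. The splicing regulators of the epithelial state ESRP1 and ESRP2 were at 6.83 and 4.35 FPKM. Not detected were GRHL2, a transcription factor of epithelial genes, and CDH17, the liver-intestine cadherin, both at 0 counts, and OVOL1 had 2 counts.

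Intestinal transcription factors were divided. Of 27 listed, 9 were expressed, 8 low and 10 not detected, or 33.3% expressed against 51.1% of all protein-coding genes. SOX9, a factor of the crypt base, was highest at 56.4 FPKM, followed by KLF5, which supports crypt proliferation, at 35.8 FPKM. With merged exons KLF5 was the higher, at 67.0 against 56.4 FPKM. ASCL2, the WNT-dependent stem cell factor, was at 13.5 FPKM. FOXA2, a pioneer factor of gut endoderm, was at 1.23 FPKM. HNF4A, the main factor of enterocyte genes, had 253 counts and 0.963 FPKM, which is low by the authors' length and expressed at 1.97 FPKM with merged exons. CDX1, the close relative of CDX2, had 0 counts, as did GATA4, HNF4G and ISX. Of the secretory factors, GFI1 was expressed with 172 counts and 2.04 FPKM, whereas ATOH1, NEUROG3 and SPDEF were at 0 counts.

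Products of mature absorptive cells of the intestine were mostly not detected. The list mixes genes of enterocytes, such as SI, LCT and APOA4, with genes of colonocytes, so it does not measure the colon alone. Of 30 enterocyte and colonocyte genes 2 were expressed and 25 had 3 counts or fewer, or 83.3% against 30.5% of protein-coding genes. VIL1, the microvillus protein villin, was the exception with 1189 counts and 8.56 FPKM, though 44% of its exon bases are shared with USP37. CEACAM1, an adhesion molecule, was at 1.35 FPKM. Zero counts were found for the chloride exchanger SLC26A3, for carbonic anhydrases CA1, CA2 and CA4, for the water channel AQP8, for the aminopeptidase ANPEP and for CEACAM5, the tumour antigen CEA. KRT20 and FABP1, common markers of differentiated colon cells, had 2 counts each.

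Of 30 genes of the secretory lineages 2 were expressed, 10 low and 18 not detected, or 60% against 30.5% of protein-coding genes. The transmembrane mucin MUC13 was at 4.82 FPKM and the kinase DCLK1, a tuft cell marker, at 4.24 FPKM. MUC2, the gel-forming mucin of goblet cells, had 2 counts, while TFF3, AGR2 and ZG16 had 0. Enteroendocrine hormones GCG, PYY, SST and INSL5 were all at 0. The granule proteins CHGB and CHGA had 83 and 13 counts, which is low, though CHGB reached 1.04 FPKM with merged exons.

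Stem cell genes were expressed in 15 of 22 cases, or 68.2% against 51.1% of all protein-coding genes, with 3 low and 4 not detected. Like the others, this list was chosen with earlier results of these data known, so its share is a description only. The median of the 22 genes was 6.80 FPKM against 1.11 FPKM of all protein-coding genes. The highest were targets and feedback inhibitors of WNT signalling. SP5, a transcription factor induced by WNT, had 2906 counts and 72.2 FPKM. AXIN2, a part of the complex that destroys beta-catenin, had 11490 counts and 58.3 FPKM, though 25.2% of its exon bases are shared with another gene. With merged exons AXIN2 was the highest of the list at 125 FPKM. NKD1, an antagonist of Dishevelled, was at 38.3 FPKM and NOTUM, a secreted enzyme that inactivates WNT ligands, at 22.8 FPKM. The receptor-removing ligases RNF43 and ZNRF3 were at 20.1 and 19.4 FPKM. In contrast to these, LGR5, the R-spondin receptor that marks crypt stem cells, had 3 counts (95% interval 0.619 to 8.77), and OLFM4, PROM1 and ALDH1A1 had 0. Its relative LGR4 was expressed at 2.13 FPKM. RNF43 shares 73.9% of its exon bases with other genes, so its value is uncertain.

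HOX genes, which mark position along the body axis, were expressed in 27 of 39 cases, or 69.2% against 51.1% of all protein-coding genes. Cluster B was the fullest, with 9 of 10 genes expressed and a summed level of 128 FPKM, led by HOXB8 at 29.8 FPKM, HOXB9 at 23.0 FPKM and HOXB7 at 22.4 FPKM. Cluster A had 8 of 11 expressed, with HOXA7 at 23.6 FPKM, and cluster C had 6 of 9, with HOXC8 at 7.71 FPKM. Cluster D was the emptiest with 4 of 9 expressed and 3 not detected, and its highest member was HOXD9 at 5.05 FPKM. HOXB13 and HOXD13, the last genes of their clusters and known from the hindgut, were at 2.18 and 1.85 FPKM. Of the 39, 18 share at least 10% of their exon bases with a neighbour, HOXA7 among them, and with merged exons 31 were expressed.

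Genes of other cell types were mostly not detected. Of all protein-coding genes, 51.1% were expressed and 30.5% had 3 counts or fewer. Endothelial genes had 0 of 10 expressed, with CDH5, PECAM1 and KDR at 0 counts. Blood and immune genes had 3 of 22 expressed, or 5 with merged exons, where CD68 and NCAM1 were added. CD68 shares 85.8% of its exon bases with other genes, so its value is uncertain. The 22 summed to 12.9 FPKM, and PTPRC, the leukocyte protein CD45, was at 0. CD74, the invariant chain of class II antigen presentation, made most of that sum with 7.23 FPKM. HBA1, with 58 counts and 1.92 FPKM, and GZMB, with 76 counts and 1.35 FPKM, were also expressed. The extraction protocol in the labels mentions retinas, at odds with the labelled line. Of 20 retina genes 1 was expressed and 14 had 0 counts, among them the photoreceptor genes SAG, CRX and GNAT1. The expressed one was RLBP1, a retinaldehyde-binding protein, with 136 counts and 2.44 FPKM. Among 15 liver and neuron genes only SERPINA1, the protease inhibitor alpha-1 antitrypsin, was expressed, with 2866 counts and 13.7 FPKM, while ALB had 1 count and AFP 0.

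Mesenchymal genes had 6 of 23 expressed and 13 not detected, or 26.1 and 56.5% against 51.1 and 30.5% of all protein-coding genes. VIM, the filament protein vimentin, had 8601 counts and 49.4 FPKM, which is above 98.0% of protein-coding genes, with 24.4% of its exon bases shared with antisense genes. SNAI1, a repressor of E-cadherin, was at 7.96 FPKM, and the matrix protein FN1 at 5.77 FPKM. ACTA2 and TAGLN, contractile proteins of smooth muscle and activated fibroblasts, were at 2.46 and 1.43 FPKM, with at least 10% of their exon bases shared with other genes, and SNAI2, a relative of SNAI1, was at 2.35 FPKM. The collagen genes COL1A1 and COL6A3 had 57 and 68 counts, which is low. The fibroblast genes COL1A2, DCN, LUM, POSTN, FAP and PDGFRA were at 0 counts, as were the repressors ZEB2 and TWIST1 and the cadherin CDH2. ZEB1 had 171 counts and 0.486 FPKM, which is low, or 1.12 FPKM with merged exons.

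**Figure D2:**
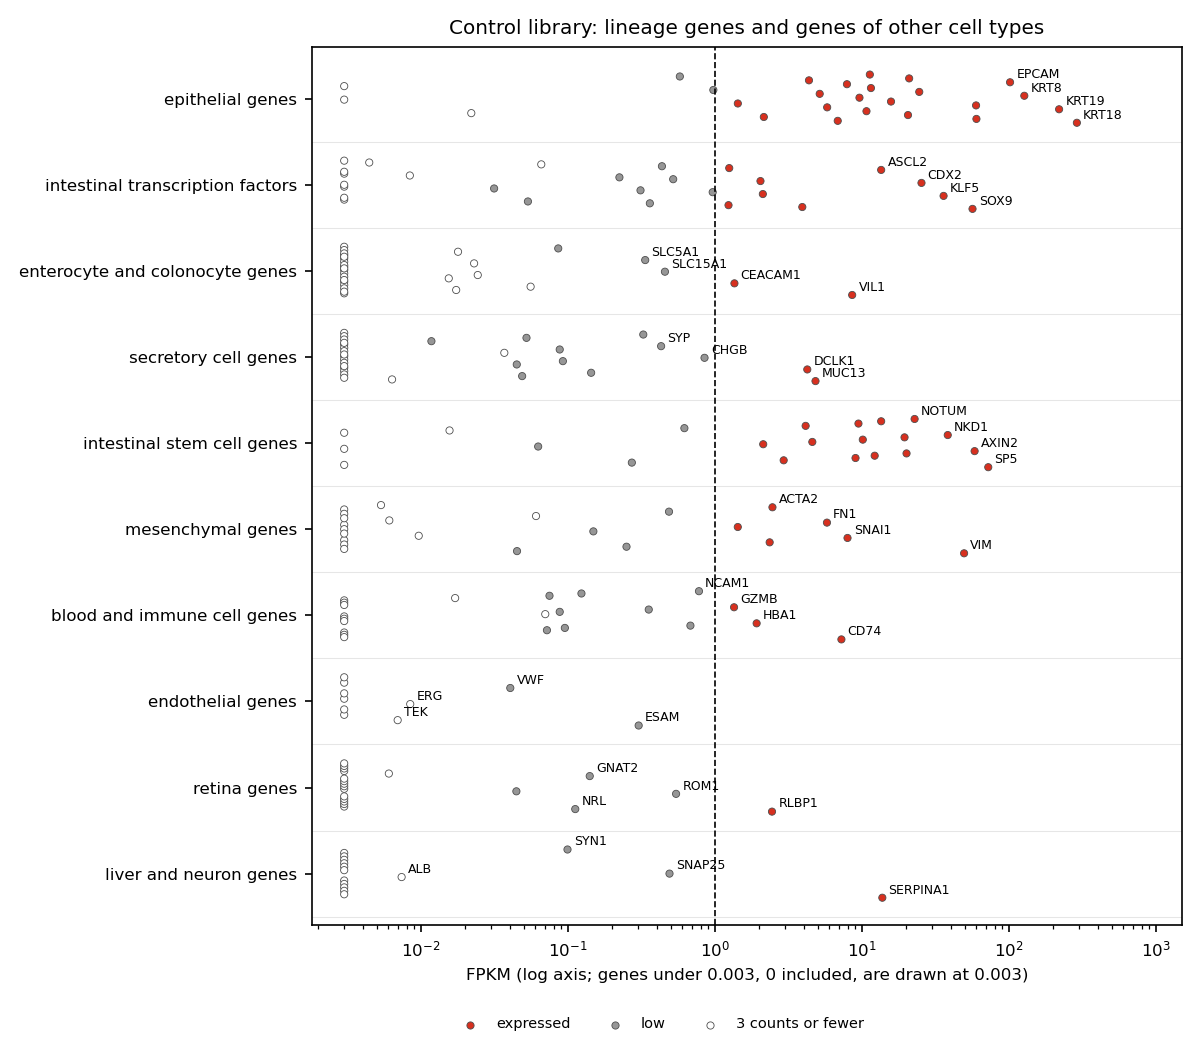
Level of each lineage gene and each gene of another cell type in the control library (x axis, FPKM on a log axis; the dashed line is the threshold of 1 FPKM; the highest 4 of each list are named). Epithelial and stem cell genes lie mostly to the right of the line, with KRT18 at 289 FPKM, while endothelial genes lie wholly to its left.

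Genes of several growth pathways that drive colorectal cancer were broadly expressed. Of 27 RAS, RAF and MAP kinase genes 23 were expressed, or 85.2% against 51.1% of all protein-coding genes, and none was undetected. NRAS, a small GTPase, had 2508 counts and 32.1 FPKM, above HRAS at 6.13 FPKM. The kinase MAPK3 was at 4.36 FPKM. DUSP6, a phosphatase induced by ERK that acts back on it, was the highest of the list at 32.9 FPKM. The feedback inhibitors SPRY4 and SPRED2 were at 18.9 and 15.7 FPKM. DUSP6 shares 40.5% of its exon bases with another gene. A count carries no base, so the known mutations of the line cannot be seen in these data.

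In the WNT pathway 24 of 31 genes were expressed, or 77.4% against 51.1% of all protein-coding genes. CTNNB1, which encodes beta-catenin, had 8940 counts (95% interval 8756 to 9127) and 40.9 FPKM. Its destruction complex was present, with GSK3B at 13.7 FPKM, APC at 2.81 FPKM and AXIN1 at 2.97 FPKM, each below AXIN2. The DNA-binding partners of beta-catenin were led by LEF1 at 5.87 FPKM, with TCF7 at 3.01, TCF7L1 at 2.47 and TCF7L2 at 2.40 FPKM. Of the secreted inhibitors SFRP5 was at 13.7 FPKM and DKK1 at 2.18 FPKM, whereas SFRP1, SFRP2, DKK2 and WIF1 were at 0 counts.

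The PI3K and mTOR list had 19 of 23 expressed, or 82.6% against 51.1% of all protein-coding genes. The catalytic subunit PIK3CA was at 6.10 FPKM and PIK3CB at 5.14 FPKM, and the blood cell form PIK3CG had 0 counts. MTOR was at 14.1 FPKM and its activator RHEB highest at 19.3 FPKM. The kinases AKT1 and AKT2 stood at 6.42 and 4.41 FPKM. The 3 named copies of RHEB held 4170 counts against 1762 on the gene, so its level would be 65.1 FPKM with them and is uncertain. PIK3CA shares 36% of its exon bases with a neighbour.

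MYC, the growth regulator that WNT signalling induces, had 281 counts (95% interval 249 to 316) and 1.69 FPKM, above 55.6% of protein-coding genes. The length behind that value was 9431 bases, and with the merged exons of 3001 bases its level was 5.32 FPKM. Its partner MAX was at 1.77 FPKM. Of 13 genes of the network 11 were expressed, or 84.6% against 51.1% of all protein-coding genes. The highest was MLX, the partner of the MondoA group, at 6.32 FPKM, or 12.9 FPKM with merged exons. The repressor MNT was at 4.33 FPKM. MYCL was at 2.76 FPKM and MYCN had 11 counts. Both MLX and MNT overlap another gene over at least 10% of their exon bases.

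Cell cycle and RB pathway genes were the most fully expressed of the oncogenic lists, with 28 of 31, or 90.3% against 51.1% of protein-coding genes. CCND1, the cyclin that starts the cycle through CDK4 and CDK6, had 42840 counts and 346 FPKM, above CCND2 at 10.3 and CCND3 at 5.61 FPKM. CDK4 and CDK6 were at 15.4 and 12.2 FPKM and E2F1 at 46.8 FPKM. RB1, the brake on E2F, was at 25.2 FPKM. CDKN1A, the kinase inhibitor p21, was at 29.4 FPKM. CDKN2A, which encodes p16 and ARF, was at 5.76 FPKM. TP63, a transcription factor of basal epithelia, had 0 counts in the same library in which KRT5 was the highest keratin. CCND1, CCND2 and CDK4 share at least 10% of their exon bases with other genes.

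The TGF-beta and BMP pathway had 14 of 30 genes expressed, or 46.7%, near the 51.1% of all protein-coding genes, with 12 low and 4 not detected. With merged exons 18 were expressed. TGFB1 and BMP7, secreted ligands, were at 28.3 and 27.2 FPKM, and BMP4 at 4.597 FPKM. The receptors TGFBR2, TGFBR1 and BMPR2 were at 6.51, 2.03 and 7.33 FPKM. Among the receptor-activated SMADs, SMAD3 was at 8.76 FPKM and SMAD5 at 6.65 FPKM, while SMAD2 had 672 counts and 0.657 FPKM, or 1.05 FPKM with merged exons. SMAD4 (ENSG00000141646, on chromosome 18 at 51028394 to 51085045, GRCh38), the partner shared by all of them, had 22 counts (95% interval 13.8 to 33.3) and 0.0491 FPKM. That was 0.0953 FPKM with merged exons, so it was low with either length. HCT116 is widely used as a line with intact SMAD4, so this value goes against what is known of the labelled line. Its cause was not tested, and no reference profile of any cell line was used here.

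DNA mismatch repair genes were expressed in 8 of 11 cases, or 72.7% against 51.1% of all protein-coding genes. PCNA, the sliding clamp of replication, was at 300.2 FPKM. MSH6 and MSH3, subunits of the mismatch sensors, were at 6.45 and 8.14 FPKM. PMS2, which acts after them, was at 5.31 FPKM. Its 10 named copies held 576 counts against 539 on the gene, which leaves that level uncertain (10.98 FPKM with the copies). The meiotic MSH4 had 0 counts. MSH6 overlaps another gene over 16% of its exon bases.

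Genes of telomeres and fetal growth had 9 of 16 expressed, or 56.2%, near the 51.1% of all protein-coding genes. HMGA1, a chromatin protein of dividing cells, was at 155 FPKM, and the RNA-binding proteins IGF2BP2, IGF2BP1 and IGF2BP3 were at 20.1, 15.3 and 4.75 FPKM. TERT, the telomerase reverse transcriptase, had 15 counts and 0.129 FPKM. LIN28A, LIN28B and NANOG had 0 counts. None of 28 cancer-testis genes was expressed, and 25 had 3 counts or fewer, or 89.3% against 30.5% of all protein-coding genes. MAGEC2 was the highest of them with 14 counts. IGF2BP3 overlaps another gene over 18% of its exon bases.

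**Figure D3:**
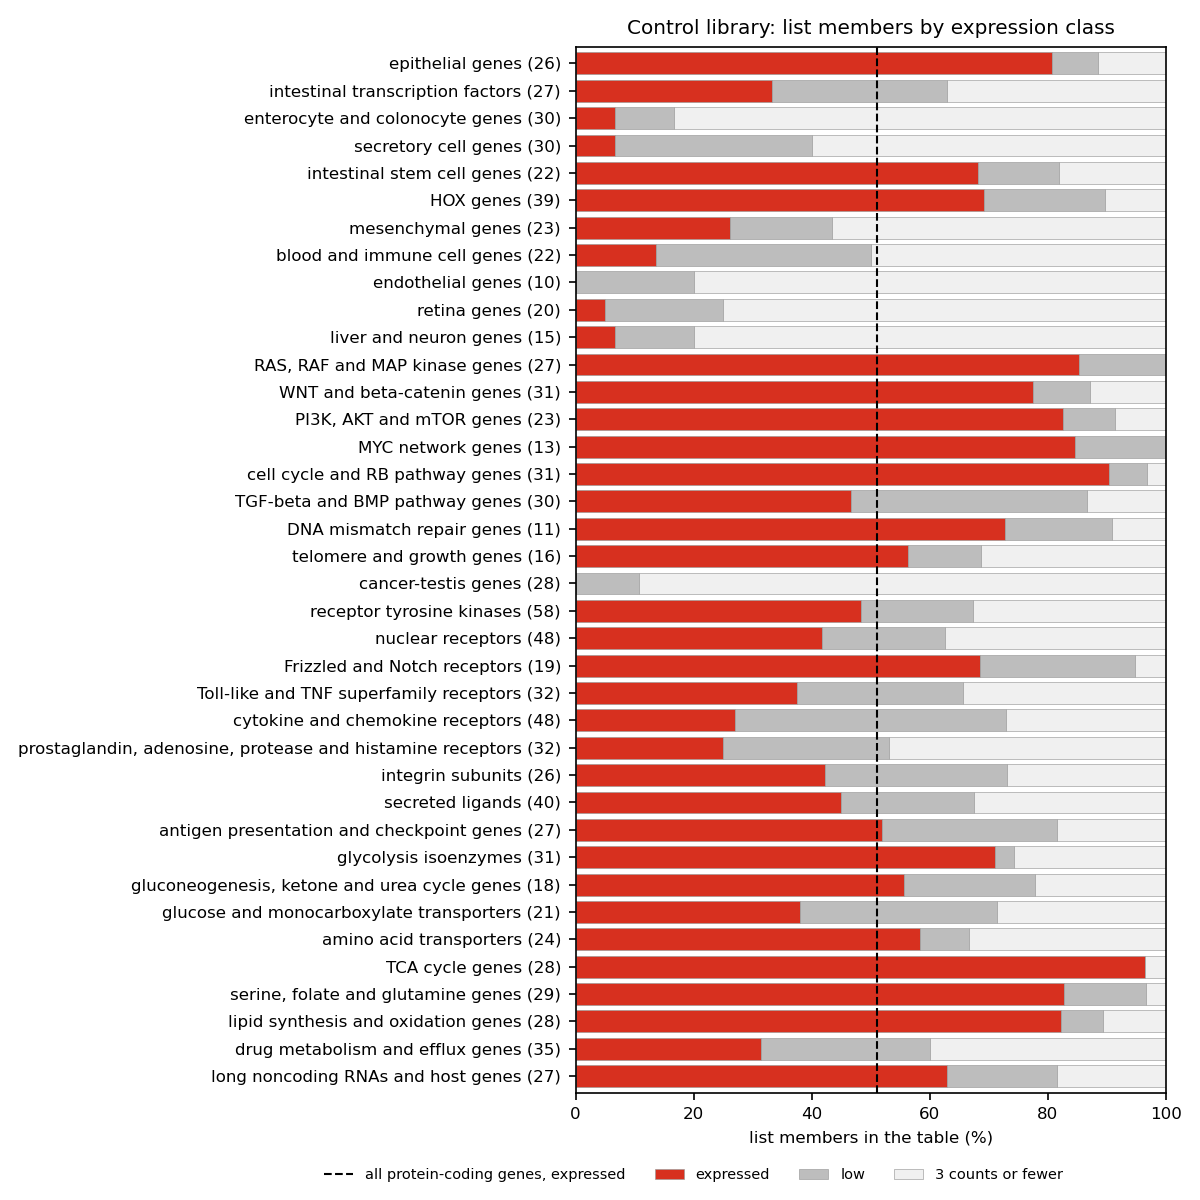
Share of each gene list (x axis, percent of members in the table; number of members in parentheses) that was expressed, low, or at 3 counts or fewer in the control library. The dashed line is the 51.1% of protein-coding genes that were expressed, and bars range from 0 for endothelial and cancer-testis genes to 96.4% for genes of the tricarboxylic acid cycle.

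Of 58 receptor tyrosine kinases 28 were expressed, or 48.3%, and 19 were not detected, or 32.8%, near the 51.1 and 30.5% of all protein-coding genes. EPHA2, a receptor for ephrin A ligands, was highest with 3207 counts and 39.3 FPKM. EGFR, the receptor of epidermal growth factor, had 6354 counts (95% interval 6199 to 6512) and 21.6 FPKM, level with AXL, the receptor for GAS6, at 21.6 FPKM. ERBB2 and ERBB3 were lower at 4.04 and 3.54 FPKM, and ERBB4 had 0 counts. MET, the receptor of hepatocyte growth factor, was at 3.70 FPKM, IGF1R at 3.85 FPKM and INSR at 3.24 FPKM. Of the fibroblast growth factor receptors, FGFR4 and FGFR1 were expressed at 1.72 and 1.62 FPKM, while FGFR3 was low. FGFR2 was low at 0.515 FPKM by the authors' length and expressed at 1.53 FPKM with merged exons. KIT had 8 counts, while RET, FLT3, ROS1 and PDGFRA had 0. ALK, usually a neural receptor, had 316 counts and 1.67 FPKM.

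Among 48 nuclear receptors 20 were expressed, or 41.7% against 51.1% of all protein-coding genes. NR1D1, the clock repressor REV-ERB alpha, was the highest at 65.9 FPKM, and its relative NR1D2 was at 15.3 FPKM. PPARD, a fatty acid sensor, was at 19 FPKM and PPARG at 1.18 FPKM. VDR, the vitamin D receptor, was at 13.7 FPKM with its partner RXRA at 6.77 FPKM. Steroid receptors were scarce. The glucocorticoid receptor NR3C1 was low at 0.885 FPKM, or 1.91 FPKM with merged exons, and ESR1 and PGR had 0 counts. NR1H4, the bile acid receptor FXR, had 0 counts, and NR1I2, the xenobiotic receptor PXR, had 2.

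Frizzled, Notch and Hedgehog receptors had 13 of 19 expressed, or 68.4% against 51.1% of all protein-coding genes. FZD7 at 12.8 FPKM was the highest of the WNT receptors called Frizzled, and the co-receptors LRP5 and LRP6 were at 16.7 and 3.73 FPKM. NOTCH2 and NOTCH1 were at 11.8 and 11.4 FPKM, while NOTCH3 was low at 0.0968 FPKM and NOTCH4 had 0 counts. PTCH1, which binds Hedgehog, was at 6.92 FPKM and SMO, which it holds back, at 1.45 FPKM.

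Death and inflammatory receptors had 12 of 32 expressed, or 37.5% against 51.1% of all protein-coding genes. TNFRSF1B, a receptor of tumour necrosis factor, had 4145 counts and 57.4 FPKM, against 4.36 FPKM for the other such receptor, TNFRSF1A. The receptors of the death ligand TRAIL, TNFRSF10B and TNFRSF10A, were at 12 and 11.5 FPKM, and the decoy TNFRSF10D at 16.2 FPKM. FAS was at 2.10 FPKM. Only TLR2, at 1.34 FPKM, was expressed among the Toll-like receptors listed. TLR4 and TLR3 were low at 0.824 and 0.625 FPKM, and TLR1, TLR8 and TLR10 had 0 counts. TNFRSF10A overlaps other genes over 16.6% of its exon bases.

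Cytokine and chemokine receptors had 13 of 48 expressed, or 27.1% against 51.1% of all protein-coding genes, and 22 low. The 5 interferon receptor chains listed were all expressed, with IFNAR1 at 15.6, IFNGR2 at 11.6, IFNGR1 at 7.14, IFNAR2 at 4.01 and IFNLR1 at 1.497 FPKM. IL6ST, the shared signal chain gp130, was at 7.89 FPKM and IL6R at 2.91 FPKM, whereas its other partners LIFR and OSMR had 0 counts. IL13RA1 was the highest at 22.1 FPKM. Of the chemokine receptors CXCR4 was at 8.29 FPKM and CCR7 at 2.02 FPKM, and CCR2, CCR6 and CCR9 had 0 counts. IFNAR2 shares 83% of its exon bases and IFNGR2 13% with other genes.

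Of 32 receptors for prostaglandins, adenosine, proteases, lipids and histamine 8 were expressed, or 25% against 51.1% of all protein-coding genes. GPRC5A, an orphan receptor induced by retinoic acid, led with 19.8 FPKM. The protease receptor F2RL1 was at 8.85 FPKM and the adenosine receptor ADORA2B at 7.87 FPKM. Of the prostaglandin E2 receptors none was expressed, with PTGER2 at 32 counts, PTGER4 at 14, PTGER1 at 2 and PTGER3 at 0.

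Integrins, which bind cells to matrix, had 11 of 26 subunits expressed, or 42.3% against 51.1% of all protein-coding genes. The laminin-binding pair ITGA6 and ITGB4 was at 40.1 and 28.4 FPKM, with ITGA3 at 20.8 FPKM. ITGB1, the partner of most alpha subunits, was at 22.8 FPKM and ITGB5 at 31.2 FPKM. ITGB6 was low with 36 counts, and the leukocyte subunits ITGA4, ITGAL and ITGAD had 0.

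Of 40 secreted ligands 18 were expressed, or 45%, near the 51.1% of all protein-coding genes. MIF, an inflammatory factor, stood highest at 241 FPKM, although 62% of its exon bases are shared with MIF-AS1 and AP000350.4, which had 65 and 111 counts. FGF19, a hormone-like fibroblast growth factor, was at 71.4 FPKM. Ligands of EGFR were modest, with TGFA at 10.1, HBEGF at 2.35 and AREG at 1.24 FPKM, and EREG and EGF low. PDGFA and PDGFB were at 14.7 and 7.55 FPKM while both of their receptors listed, PDGFRA and PDGFRB, had 0 and 8 counts. VEGFB was at 15.7 FPKM and VEGFA at 1.06 FPKM. IL1A, IL1B, IL18 and IL33 had 0 counts, and CXCL8 was at 1.43 FPKM.

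Antigen presentation genes had 14 of 27 expressed, 51.9%, close to the share of all protein-coding genes. The class I heavy chains HLA-B and HLA-C were at 30.4 and 16.6 FPKM, and their light chain B2M had 2357 counts and 10.5 FPKM. The peptide transporter TAP1 was at 10.6 and TAP2 at 16.1 FPKM. Of the class II genes, HLA-DRA had 24 counts and HLA-DMA 53, both low by the authors' length and at 1.07 and 1.19 FPKM with merged exons. HLA-DQA1 had 0 counts and the class II activator CIITA had 23, while the class II invariant chain CD74 was expressed, as given above. The checkpoint ligand CD274, PD-L1, had 19 counts and 0.138 FPKM, and CD276 was at 1.28 FPKM. HLA-B and TAP2 share at least 10% of their exon bases with other genes, and reads of the class I genes are alike, so these levels are uncertain.

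**Figure D4:**
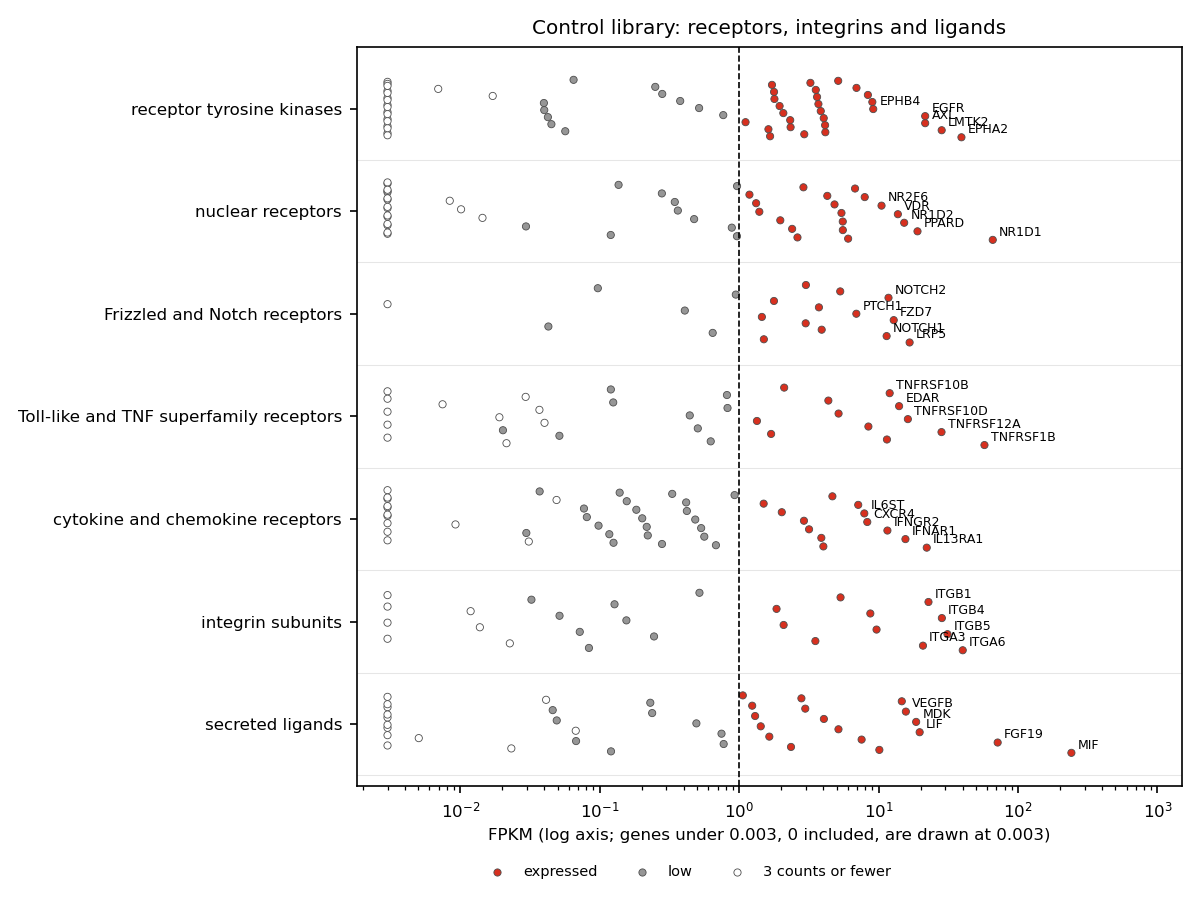
Level of each receptor, integrin subunit and ligand in the control library (x axis, FPKM on a log axis; the dashed line is the threshold of 1 FPKM; the highest 5 of each list are named). Most cytokine and chemokine receptors lie left of the line, with 13 of 48 expressed, and MIF at 241 FPKM is the highest of all shown.

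The enzymes of central metabolism were expressed at high levels and mostly as 1 form per step. Of 31 glycolysis genes 22 were expressed, or 71.0% against 51.1% of all protein-coding genes, with a summed level of 1500 FPKM. At the entry, HK1 was at 21.9 FPKM and HK2 at 12.9 FPKM, while HK3 had 0 counts. PFKP at 22.1 FPKM held 59.0% of the summed phosphofructokinase level. ALDOA, ENO1 and PKM held nearly all of aldolase, enolase and pyruvate kinase, at 97.2, 97.9 and 100%, and PKLR had 0 counts. ALDOA overlaps other genes over 53.5% of its exon bases, which leaves its level uncertain. The testis forms GAPDHS, PGK2 and LDHC had 0 counts.

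At lactate dehydrogenase both main forms were abundant. LDHA, the muscle form, had 16836 counts and 59.8 FPKM, and LDHB, the heart form, had 10513 counts and 137 FPKM. The length behind the FPKM of LDHA is the larger, and with merged exons the levels were 154 and 200 FPKM, so that LDHA made 30.4% of the step by the authors' length and 43.5% by merged exons. LDHB shares 33.4% of its exon bases with another gene, and 6 named copies of LDHA held 1992 counts. The order of these forms is therefore uncertain.

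**Figure D5:**
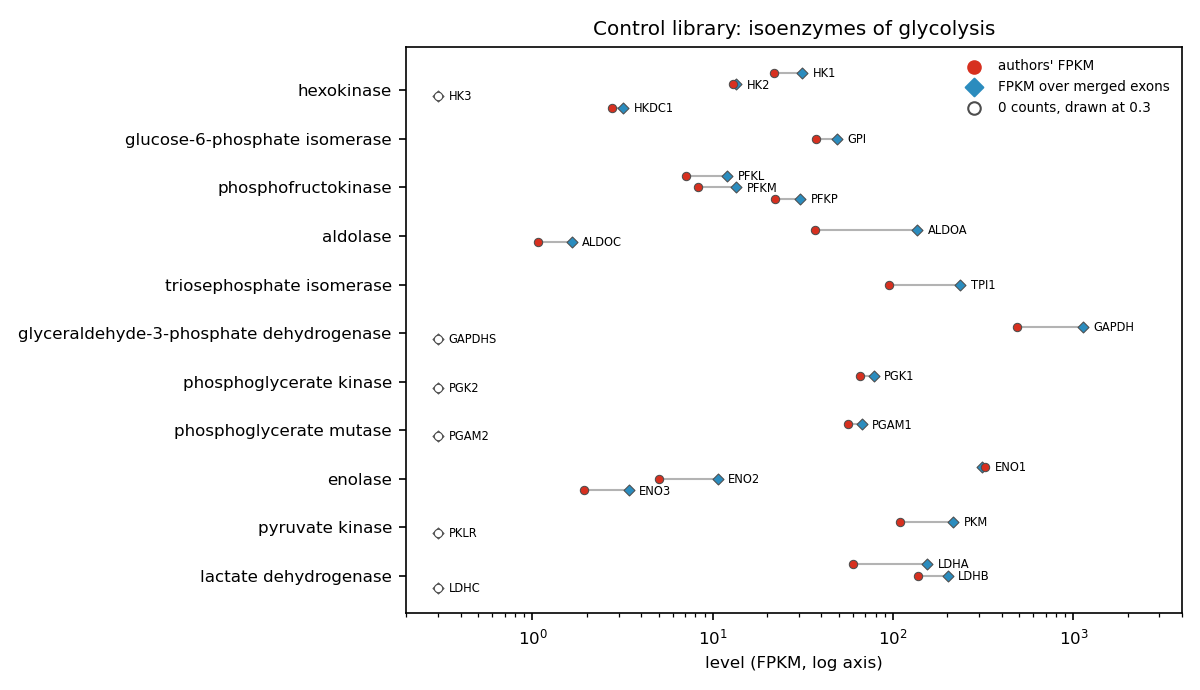
Levels of isoenzymes of each step of glycolysis in the control library (x axis, FPKM on a log axis; circles for the authors' length, diamonds for merged exons; genes at 0 counts are drawn at 0.3). In each step shown with several forms the same gene stands highest with either length, and LDHB lies above LDHA by less with merged exons.

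Levels of the glucose carriers differed widely. SLC2A1 (GLUT1) was at 150.5 FPKM and SLC2A3 (GLUT3) at 91.5 FPKM, while SLC2A2 of the liver and SLC2A5, the fructose carrier of the gut, had 0 counts. The lactate carriers SLC16A1 (MCT1) and SLC16A3 (MCT4) were at 38.6 and 7.99 FPKM with their chaperone BSG at 31.0 FPKM. SLC5A8, the butyrate carrier of colonocytes, had 0 counts. Of the 21 carriers listed 8 were expressed, 7 low and 6 not detected, or 38.1% expressed against 51.1% of all protein-coding genes.

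Amino acid carriers had 14 of 24 expressed, or 58.3%, near the 51.1% of all protein-coding genes. Some of the highest levels of any transporter were among them. SLC1A5, which takes up glutamine, had 30951 counts and 316 FPKM. SLC7A5, the large neutral amino acid carrier LAT1, was at 234 FPKM, and its heavy chain SLC3A2 at 23.1 FPKM. SLC7A11, the cystine carrier, was at 4.37 FPKM. The gut and kidney carriers SLC6A19, SLC6A14 and SLC7A9 had 0 counts. SLC1A5 shares 23.8% of its exon bases with other genes.

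The tricarboxylic acid cycle had 27 of 28 genes expressed with either length and a median of 12.9 FPKM. That was 96.4% against 51.1% of all protein-coding genes. MDH2 and FH, the malate dehydrogenase of mitochondria and fumarase, were at 65.0 and 55.4 FPKM. Only PDHA2, the testis form of pyruvate dehydrogenase, had 0 counts. In the serine, folate and glutamine list 24 of 29 were expressed, or 82.8%. ODC1, which starts polyamine synthesis, was at 138 FPKM, PSAT1 of the serine pathway at 82.5 FPKM and TYMS, the thymidylate synthase, at 57.0 FPKM. PHGDH, which starts serine synthesis, was at 4.61 FPKM. BCAT1 had 4 counts while BCAT2, the mitochondrial form, was at 6.02 FPKM. TYMS overlaps other genes over 46.6% of its exon bases.

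Lipid genes had 23 of 28 expressed, or 82.1% against 51.1% of all protein-coding genes. SCD, the desaturase that makes oleate, was at 110.2 FPKM, with FASN at 29.02 and ACLY at 43.1 FPKM. CPT1A, which brings fatty acids into mitochondria, was at 25.3 FPKM, and the brain form CPT1C had 0 counts. The fatty acid transporter CD36 had 0 counts.

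Gluconeogenesis, ketone and urea cycle genes had 10 of 18 expressed, or 55.6%, near the 51.1% of all protein-coding genes. ARG2 and ASS1 were at 41.1 and 30.7 FPKM, whereas the liver enzymes ARG1, OTC and G6PC had 0 counts and CPS1 had 6. PCK2 of mitochondria was at 3.22 FPKM and the cytosolic PCK1 had 2 counts. ARG2 overlaps another gene over 37% of its exon bases.

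Of 35 drug metabolism and efflux genes 11 were expressed, or 31.4% against 51.1% of all protein-coding genes. GSTP1, a glutathione transferase, was highest at 71.4 FPKM, followed by the retinal dehydrogenase ALDH1A3 at 42.4 FPKM and the quinone reductase NQO1 at 27.7 FPKM. Among efflux pumps ABCC1 was at 10.5, ABCC3 at 5.08 and ABCB1 at 4.29 FPKM, and ABCG2 had 11 counts. DPYD, which breaks down fluorouracil, had 0 counts, while UMPS and UPP1, which activate it, were at 6.80 and 9.09 FPKM. The cytochromes CYP3A4 and CYP1A2 had 0 counts. CES2, which activates irinotecan, was at 2.07 FPKM and CES1 had 0 counts. ALDH1A3, NQO1 and CES2 share at least 10% of their exon bases with other genes.

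Of 27 long noncoding RNAs and small RNA host genes 17 were expressed, 63.0% against 4.88% of the long noncoding types, in a list picked from well studied and abundant RNAs. After NORAD, the highest were ZFAS1 at 26.8 FPKM, the nuclear RNA MALAT1 at 25.1 FPKM and the small RNA host gene SNHG6 at 11.6 FPKM. TUG1 was at 11.2 FPKM and NEAT1, the scaffold of paraspeckles, was at 10.99 FPKM. HOTAIR, transcribed within the HOXC cluster, was at 4.97 FPKM and its counterpart of the HOXA cluster, HOTTIP, had 24 counts. H19 and MEG3, imprinted RNAs, had 0 counts. ZFAS1, SNHG6 and TUG1 share at least 10% of their exon bases with other genes.

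Across all 38 lists 1028 distinct genes were in the table. Of these 512 were expressed, 208 low and 308 at 3 counts or fewer. The expressed and undetected shares were near the 51.1 and 30.5% of all protein-coding genes. With merged exons 559 of the listed genes were expressed, and none of those changes was from expressed to low. In all, 164 of the genes share at least 10% of their exon bases with another gene, and 419 expressed genes were left when these were set aside. Among protein-coding genes, the undetected ones had medians of 6 exon blocks and 2192 bases in the longest transcript. The medians were 11 blocks and 3610 bases in expressed genes and 10 blocks and 3620 bases in low genes. The undetected class was set by counts, which rise with length at a given level, so no conclusion on length is drawn. Median GC content of the longest transcript was 48.7% in undetected and expressed genes and 50.9% in low genes.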

How the data were processed

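The members and gene lists were chosen with earlier results of these data known. Counts per gene were deposited by the authors as whole numbers, and beside them FPKM values, which scale that count to a gene length and to the total of its column. Tested against GENCODE 29 over 13047 genes with at least 50 counts, the deposited FPKM used the sum of all distinct exons for 92.1% of genes and the merged exons for 12.3% (within 0.5 bases). Per the submitters' processing notes, the tool was Bowtie 0.12.2 and the builds were mm8 and GRCh38, without saying which served this table. The table's coordinates equalled those of GENCODE 29 on GRCh38 for 97.6% of 58039 shared genes. No source used here names the counting program or says how it treated strand and reads with several placements. The 4 per-sample columns of the other libraries were not used.

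Genes were classed by FPKM and count (at least 1 and 10, or 3 counts or fewer), with exact Poisson intervals, and described by list. Named genes were list members, the 10 most abundant nuclear protein-coding genes and the 3 highest of each type described. Exon overlap of at least 10% on either strand marked a value as uncertain. No test was run, since the group had 1 library. Alternatives changed the thresholds, the unit, the gene length and the treatment of overlapping genes. The classing was also run on simulated counts with known levels away from the threshold, and genes with few expected counts were not scored. That run does not test the effect of overlaps, of reads with several placements or of gene length. Python 3.11.15, pandas 2.3.3, NumPy 2.4.6 and SciPy 1.17.1 were used. Results for some list members are not reported here, and they stay in the counts of their lists.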

Additional observations from a re-analysis of the deposited data

How the results depend on the processing

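The number of expressed genes ranged from 8178 with genes that overlap another on the same strand left out to 16415 with no FPKM threshold, against 12225 as reported, and that of protein-coding genes from 6772 to 13047 against 10133. Outside the protein-coding genes, 2092 were expressed as reported and 3368 with at least 10 counts and no FPKM threshold. List members expressed fell from 512 to 336 with same-strand overlaps left out, a setting that also leaves fewer genes to count. The share of the 10 most abundant genes was 3.46% without mitochondrial genes and 28.3% in FPKM. Of the 38 lists, 14 moved by more than 1.5 times with same-strand overlaps left out, 13 with no FPKM threshold, 12 with CPM, 10 with TPM, 3 at an FPKM of 2, 2 at 0.5 and none without the minimum count. With 2 alternatives chosen after seeing the data, 4 moved when genes with shared exons were left out and 1 with merged exons. Promoter classes at other thresholds were not run, since too few genes matched a promoter. No paired analysis was possible because the control group had 1 library and no comparison was made. Genes at 3 counts or fewer are not detectable at this depth, which does not show that they are absent.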

Other observations

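Several gene families outside the lists were looked at after their values had been seen, and are given as values only. For comparison, 51.1% of all protein-coding genes were expressed. Of 55 keratin genes 14 were expressed, with a summed level of 1307 FPKM, of which KRT5 made 39.9%. KRT23 followed the keratins of simple epithelia at 56.8 FPKM. The hair and root sheath keratins KRT71 and KRT81 were at 17.7 and 16.8 FPKM and KRT6A, known from wounded skin, at 15.2 FPKM. KRT17 was at 1.06 FPKM.

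S100 calcium-binding proteins had 9 of 20 members expressed, and S100A11 at 366 FPKM made 53.3% of their sum. S100A14 and S100P had 13 and 5 counts. Metallothioneins, which bind zinc and copper, had 5 of 9 expressed, with MT2A at 88.5 FPKM and MT1E at 37.9 FPKM. Among 24 claudins, the tight junction proteins, 8 were expressed, led by CLDN3 at 11.3 FPKM and CLDN1 at 8.66 FPKM. Cadherins numbered CDH had 4 of 23 expressed, and CDH3, or P-cadherin, at 6.53 FPKM stood beside CDH1.

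WNT ligands had 8 of 19 members expressed, with WNT6 at 24.4 FPKM and WNT5A at 14.5 FPKM. Of 18 aldehyde dehydrogenases 11 were expressed and ALDH1A3 made 36.0% of their sum. SOX9 made 70.2% of the summed level of 19 SOX factors. Olfactory receptors, which belong to sensory neurons, had 0 of 381 genes expressed and 6 low, the highest being OR2A4 with 22 counts.

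By chromosome, the share of protein-coding genes expressed was highest on chromosome 20, at 59.0% of 539 genes, and on chromosome 13, at 58.3% of 319. It was lowest on chromosome X at 40% of 840, on chromosome 18 at 40.9% of 269 and on chromosome 4 at 42.2% of 748. Gene density and gene families differ between chromosomes, and copy number was not tested.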
